A study of Mus musculus with 6 samples.

Results

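The complement and coagulation genes described here are 35 genes of 18099 in the table. They were taken by name as components, receptors and regulators of complement and of clotting and fibrinolysis, with 20 genes of complement and 15 of clotting and fibrinolysis, and by no threshold on their values. RNA was sequenced from the repair tissue of the Achilles tendon of neonatal mice, collected 7 days after the tendon had been cut through. The 3 mice of one group were *LysM-Cre; Ampkα1fl/fl* and the 3 control mice were their *Ampkα1fl/fl* littermates, so that all 6 mice carried the floxed *Ampkα1* alleles and the injury, and the labels set them apart by Cre. Cre made from the lysozyme M locus acts in myeloid cells such as macrophages and neutrophils, whereas the RNA came from whole tissue, and in whole tissue fewer cells of a type and less RNA per cell cannot be told apart. The comparison asked which genes of the injured tendon differed between mice with and without this Cre. It removes AMPKα1, a subunit of an energy-sensing kinase, from myeloid cells with the floxed alleles.

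Complement is a set of blood and tissue proteins that tag microbes and cell debris. C1q, with the proteases C1r and C1s, starts the classical pathway by cleaving C4 and C2. All pathways meet at C3, which the alternative pathway protease factor B amplifies. The fragments C3a and C5a draw in and activate leukocytes through C3aR1 and C5aR1, while CD55 and CD59 shield the body's own cells. Clotting starts when tissue factor meets factor VII in a wound and is held back by tissue factor pathway inhibitor and by thrombomodulin with protein C. Clots are dissolved by plasmin, which the activators tPA and uPA release from plasminogen. Many of these proteins reach the blood from the liver, and macrophages, fibroblasts and endothelial cells also make some of them locally.

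The libraries held 18076805 to 19479887 reads assigned to genes. Values of single genes are given as CPM, the reads of a gene scaled to a common library total. The label of the mice was checked on *Lyz2*, the gene of the Cre locus, which had 390 to 425 CPM in the controls and 0.43 to 0.81 CPM in the LysM-Cre mice. The groups thus differed in *Lyz2* RNA as well as in Cre, and its part in the members' values was not tested. *Prkaa1*, which encodes AMPKα1, had 37.6 to 39.2 CPM and 32.6 to 40.6 CPM, with overlapping groups (edgeR adjusted p = 0.744), in RNA that also came from cells without Cre. All 6 tendon markers on the list, among them *Scx* and *Tnmd*, were expressed. Transcripts of 20 skeletal muscle genes took 0.0399% to 0.437% of the reads of the control libraries and 0.454%, 0.162% and 1.24% of those of the LysM-Cre libraries, so that LysM-Cre replicate 3 held most muscle RNA. The hepatocyte list was at or near 0, with a summed level of 0.38 to 0.74 TPM and 0 of its 8 genes with enough reads for the test.

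The RNA of the pathway genes was carried by few of them. TPM, the authors' value, is scaled to transcript length and library total, so that levels of different genes may be set side by side. Among the members *Serpinf1*, which encodes the serpin PEDF, had the highest level. It had 1169, 1138 and 1144 TPM in the controls and 1187, 1164 and 1081 TPM in the LysM-Cre mice. The 3 chains of C1q came next, each between 250 and 405 TPM, followed by *Serping1* (C1 inhibitor) and *Serpine2* (protease nexin-1). *C6*, *F5*, *F7*, *F10*, *C7*, *C5ar2* and *Cfi* had at most 2.31 TPM in any library. *C6*, a component of the membrane attack complex, had 2 to 11 reads per library and was the 1 member left out of the test for low counts.

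**Figure D1:**
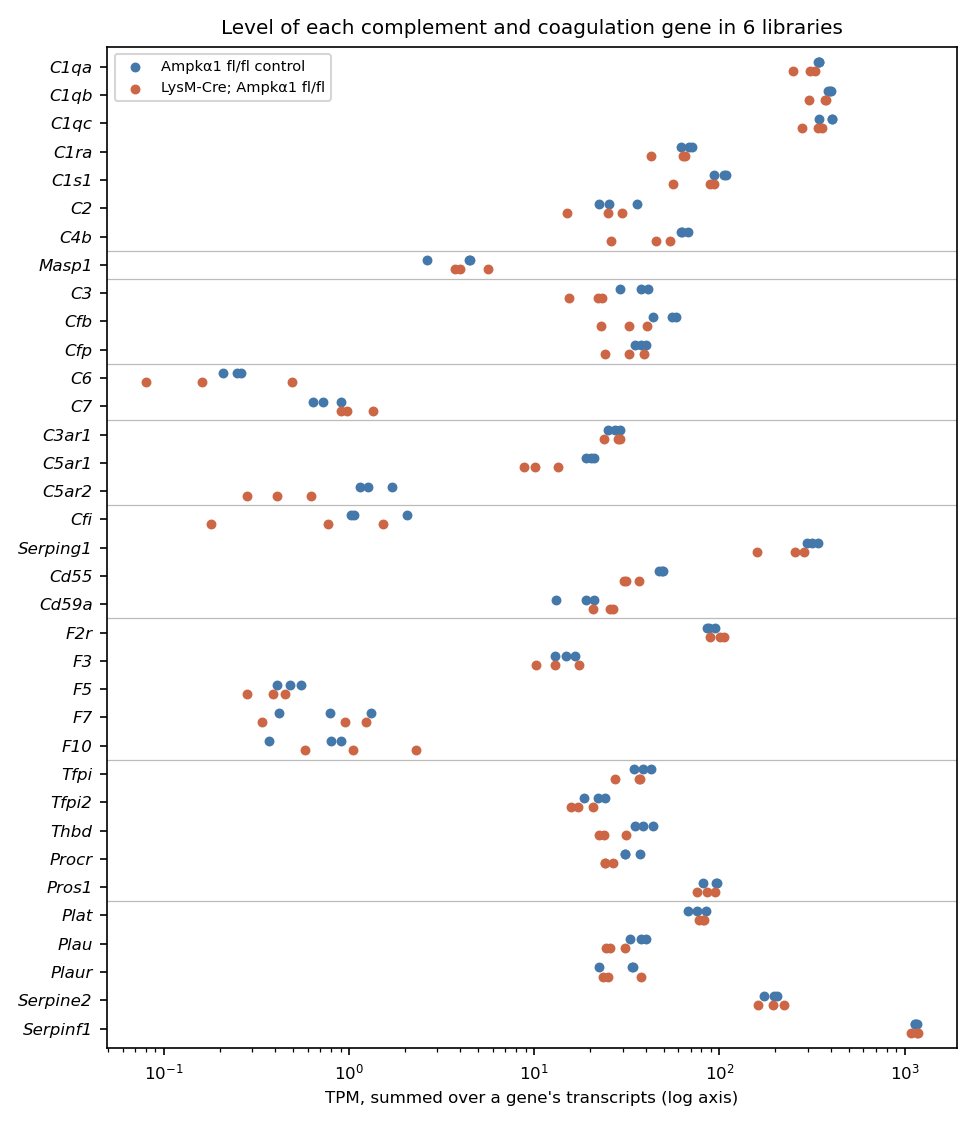
Level of each of the 35 genes in each of the 6 libraries, in TPM on a log axis, with control libraries in blue and LysM-Cre libraries in red; grey lines part the gene classes. *Serpinf1* sits above 1000 TPM in all 6 libraries, and *C5ar1*, *C5ar2*, *Cd55* and *Thbd* show red points left of all blue points.

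Of the 34 members tested, 28 had a lower estimate in the LysM-Cre mice, against 50.6% of all 14261 genes tested, and the median log2 fold change was -0.25, against -0.0020 over all genes. In edgeR's quasi-likelihood test, 1 member, *Cd55*, had an adjusted p under 0.05, and 0.898% of all genes did. With the replicate number as a block 0 members did, against 0.33% of all genes, and 15 had an unadjusted p under 0.05, against 15.9%. Without the block, an unadjusted p under 0.05 was found for 12 members with lower values, against 8.55% of all genes in that direction, and for 1 member with higher values, against 5.97%. In CPM, the 3 LysM-Cre libraries lay below all 3 control libraries for 13 members, against 11.4% of all genes. They lay above them for 1 member, *Cd59a*, against 8.94%. For any single gene without overlap the exact permutation test of 3 against 3 libraries gave its smallest possible two-sided p of 0.1. DESeq2 called 8 members, all lower (*C3*, *C4b*, *C5ar1*, *C5ar2*, *Cd55*, *Cfb*, *Plau* and *Thbd*), against 4.77% of all genes.

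Of 19 complement genes tested 16 had a lower estimate, with a median log2 fold change of -0.26, and 10 lay below all control libraries. Of 15 clotting and fibrinolysis genes 12 had a lower estimate, with a median of -0.10, and 3 lay below all control libraries. Over all genes tested, 50.6% had a lower estimate and 11.4% lay below all control libraries. LysM-Cre replicate 3, which held most muscle RNA, was the lowest of the 6 libraries for 24 of 34 members, against 18.3% of all genes. Without that library the median over all members was -0.11, over the complement genes -0.17 and over the clotting genes 0.0021. With the muscle score of each library as a covariate the median over all members was -0.13, and 0 members had an adjusted p under 0.05.

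**Figure D2:**
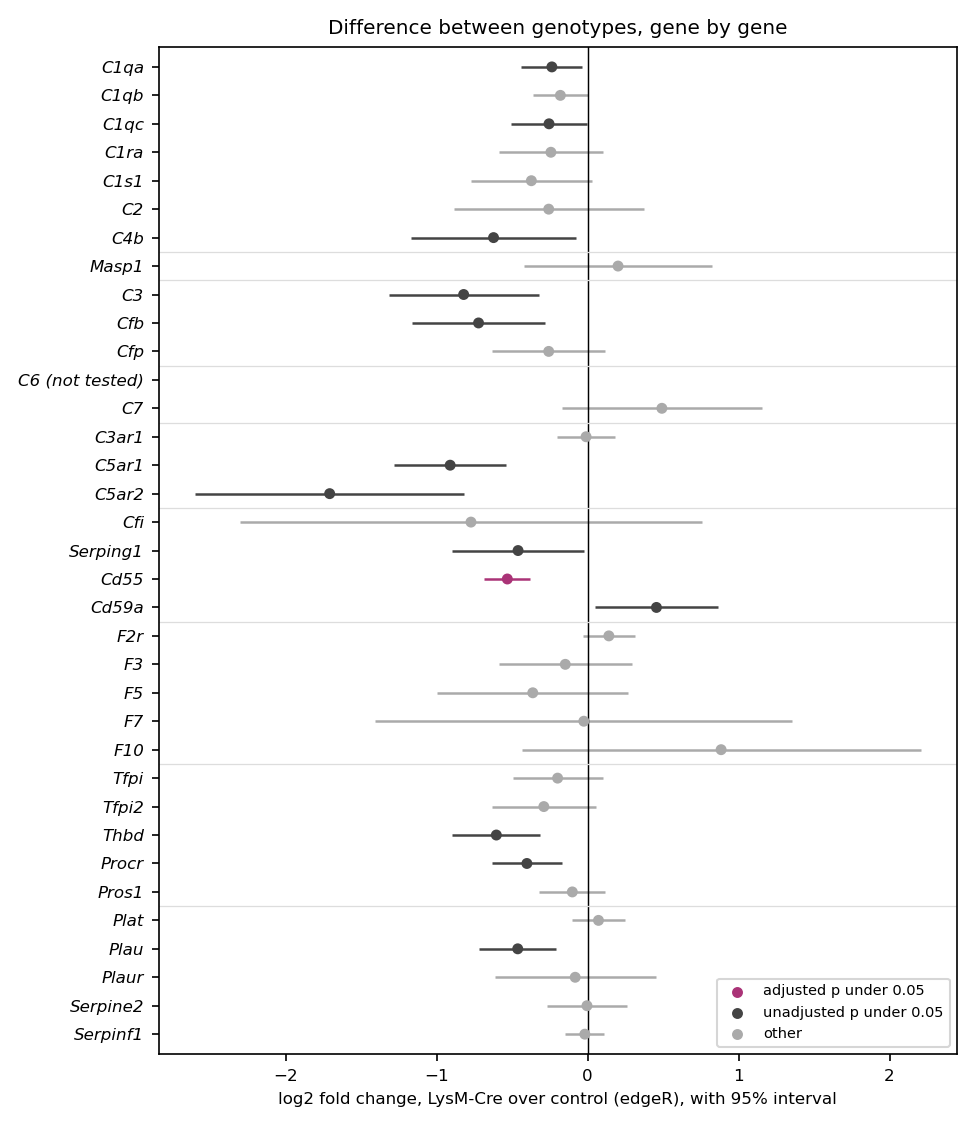
Log2 fold change (LysM-Cre over control, edgeR) with its 95% interval for the 34 genes tested, by class. Points left of 0 were lower in LysM-Cre mice: *Cd55* (purple) had an adjusted p under 0.05, dark points an unadjusted p under 0.05, and *Cd59a* is the dark point right of 0.

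**Figure D3:**
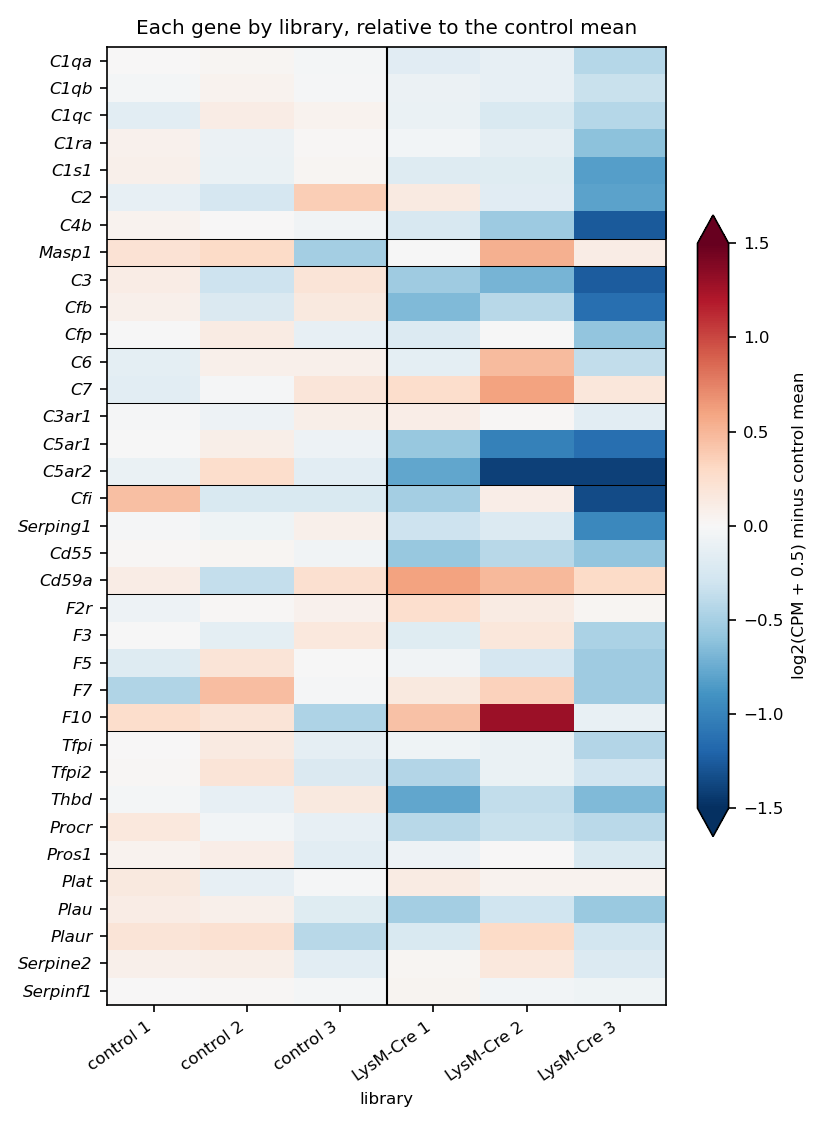
Each gene (row) in each library (column), as log2(CPM + 0.5) minus the mean of the 3 control libraries; blue is lower and red higher, and the colours end at 1.5 in either direction. The right column, LysM-Cre replicate 3, is the bluest for the classical pathway, *C3* and *Cfb*, while *Cd55*, *Thbd*, *Procr* and *Plau* are blue in all 3 LysM-Cre columns.

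The start regions of 5 genes are printed because the results turn on them. *Cd55* was the 1 member called, and *Cd59a* the 1 member with higher CPM, though not higher TPM, in all LysM-Cre libraries. *C5ar1* and *C5ar2* had the largest decreases in estimate with an unadjusted p under 0.05, and *C3* is where the pathways meet. Each sequence holds the 250 bases before an annotated start (RefSeq, GRCm38.p6), 5′ to 3′ on the strand of the gene, and for *C5ar2* the first of 2 listed starts. Capitals mark the letters CANNTG (E-box), those of the interferon-stimulated response element (GAAA repeated after any 2 bases), TTCNNNGAA (gamma activated site) or TATAAA, searched on both strands. The starts used for *Cd55*, *Cd59a* and *C5ar1* lie inside the spans that RefSeq gives for these genes. None of these letters stands in the bases printed for *Cd55*.
*Cd55* (chr1:130462745-130462994, minus strand): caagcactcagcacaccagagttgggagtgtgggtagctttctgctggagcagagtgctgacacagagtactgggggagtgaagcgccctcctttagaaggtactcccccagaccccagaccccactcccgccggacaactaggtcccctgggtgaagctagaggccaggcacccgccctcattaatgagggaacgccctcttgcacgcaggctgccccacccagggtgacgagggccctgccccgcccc
*Cd59a* (chr2:104095551-104095800, plus strand): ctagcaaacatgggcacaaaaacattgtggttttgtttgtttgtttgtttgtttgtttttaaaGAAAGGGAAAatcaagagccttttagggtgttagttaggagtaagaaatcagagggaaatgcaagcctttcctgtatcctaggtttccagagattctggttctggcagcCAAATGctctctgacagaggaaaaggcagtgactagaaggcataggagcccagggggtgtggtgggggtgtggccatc
*C5ar1* (chr7:16259339-16259588, minus strand): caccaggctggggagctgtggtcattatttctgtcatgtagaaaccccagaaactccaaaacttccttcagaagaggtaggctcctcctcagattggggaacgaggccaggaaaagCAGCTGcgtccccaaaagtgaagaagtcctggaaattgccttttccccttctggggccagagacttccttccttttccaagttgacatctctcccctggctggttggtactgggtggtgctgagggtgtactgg
*C5ar2* (chr7:16244155-16244404, minus strand): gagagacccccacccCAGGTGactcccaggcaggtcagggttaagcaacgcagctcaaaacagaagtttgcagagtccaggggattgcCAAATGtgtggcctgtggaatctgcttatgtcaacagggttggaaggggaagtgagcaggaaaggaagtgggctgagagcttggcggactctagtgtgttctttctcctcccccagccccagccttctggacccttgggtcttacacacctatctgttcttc
*C3* (chr17:57228137-57228386, minus strand): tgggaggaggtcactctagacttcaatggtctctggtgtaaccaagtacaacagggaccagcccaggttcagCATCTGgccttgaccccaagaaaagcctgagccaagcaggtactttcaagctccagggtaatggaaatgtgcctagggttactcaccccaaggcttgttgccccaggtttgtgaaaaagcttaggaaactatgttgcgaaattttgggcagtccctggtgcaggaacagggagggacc

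A start region was found for 25 of the 35 members, with 30 starts in all, and motifs were counted from 250 bases before to 50 bases after each. The interferon-stimulated letters stood in 1 of the 30, that of *Cd59a*, 187 bases before its start, and in 3.44% of all 32851 start regions. The gamma activated letters stood in 3 (*C1ra*, *C7* and *Pros1*), against 8.30% of all. E-box letters stood in 24 of 30, against 72.3% of all, and TATAAA in 5, against 13.6%. A match of letters is no evidence of binding.

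In the classical pathway all 7 genes had lower estimates, from -0.62 for *C4b* to -0.18 for *C1qb* on the log2 scale, and 0 of them had an adjusted p under 0.05. The C1q chain gene *C1qa* had 132, 134 and 128 CPM in the controls and 117, 121 and 97.5 CPM in the LysM-Cre mice. *C1qb*, the chain with the highest TPM, had 152, 160 and 152 CPM and 146, 142 and 122 CPM, and *C1qc* had 127, 152 and 147 CPM and 132, 120 and 105 CPM. The LysM-Cre libraries lay below the controls for *C1qa* and *C1qb*, and overlapped for *C1qc*. The log2 fold changes were -0.24, -0.18 and -0.26 (edgeR adjusted p = 0.264, 0.349 and 0.330), and those of *C1qa* and *C1qb* were -0.15 and -0.11 without LysM-Cre replicate 3. The 3 genes stand side by side on chromosome 4, with 2979 and 3600 bases between neighbours.

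*C4b*, which encodes the C4 protein that C1s cleaves, showed the largest difference in the class. It had 169, 165 and 158 CPM in the controls and 139, 112 and 68.3 CPM in the LysM-Cre mice, without overlap, and replicate 3 was far below the other two. The log2 fold change was -0.62 (SE 0.23, edgeR adjusted p = 0.280), and -0.39 without LysM-Cre replicate 3. Its near-identical copy *C4a* had 7 to 21 reads per library, and how the counting shared reads between the copies is not known. The protease gene *C1s1* had 141, 125 and 136 CPM and 117, 118 and 75.3 CPM, again without overlap in CPM. In TPM the groups overlapped, with 93.1 in control replicate 2 and 93.7 in LysM-Cre replicate 2. Its log2 fold change was -0.37 (edgeR adjusted p = 0.380) and became -0.19 without LysM-Cre replicate 3. *C1ra* and *C2* overlapped between groups, at -0.24 and -0.26, which became -0.086 and -0.033 without LysM-Cre replicate 3, and *C2* was at -0.043 without control replicate 3. *Masp1*, a protease of the lectin pathway, had 7.78, 8.14 and 4.50 CPM and 6.57, 9.79 and 7.13 CPM, with overlapping groups. Its log2 fold change was 0.20, and -0.023 without control replicate 3. *Masp1* shares 1022 bases of its gene span with *Rtp4*.

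*C3* and *Cfb* were lower in every LysM-Cre library. *C3* (NCBI Gene 12266, chr17:57203967-57228136) had 71.0, 52.5 and 75.2 CPM in the controls and 45.2, 40.1 and 27.2 CPM in the LysM-Cre mice. *Cfb*, which encodes factor B (chr17:34856374-34862514) and had the highest TPM of the class, had 66.9, 54.6 and 70.1 CPM and 39.9, 47.5 and 28.6 CPM. In both genes control replicate 2 was the lowest control and LysM-Cre replicate 3 the lowest of all, and the groups did not overlap. The log2 fold changes were -0.82 (SE 0.21) and -0.72 (SE 0.19), with edgeR adjusted p of 0.140 and 0.143, and they were -0.64 and -0.55 without LysM-Cre replicate 3. *Cfb* lies 87 bases from *C2*. The ratio of *Cfb* to *C3* within a library overlapped between the groups, from 1.42 to 1.51 in the controls and from 1.41 to 1.85 in the LysM-Cre mice. Properdin (*Cfp*), which stabilizes the alternative pathway protease, had a log2 fold change of -0.26 with overlapping groups, which was -0.11 without LysM-Cre replicate 3. *C7* of the membrane attack complex had 0.85, 0.98 and 1.21 CPM and 1.30, 1.78 and 1.19 CPM, with overlapping groups and a log2 fold change of 0.49.

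Among the anaphylatoxin receptors the 2 receptors of C5a had lower values in every LysM-Cre library, and the values of the C3a receptor overlapped. *C5ar1* (NCBI Gene 12273, chr7:16246743-16259540) had 22.0, 23.5 and 20.8 CPM in the controls and 14.7, 10.7 and 9.84 CPM in the LysM-Cre mice. *C5ar2* (chr7:16234587-16244154), a second C5a receptor, had 1.80, 2.46 and 1.70 CPM and 0.94, 0.43 and 0.43 CPM. Every LysM-Cre library lay below every control library for both genes, which are neighbours 2588 bases apart. The log2 fold changes were -0.91 (SE 0.16, edgeR adjusted p = 0.0597, or 0.0671 with the replicate block) and -1.71 (SE 0.38, edgeR adjusted p = 0.105), the latter from 144 reads over all libraries. *C3ar1*, the C3a receptor and the member of the class with the highest TPM, had 53.6, 51.5 and 57.9 CPM and 58.1, 55.1 and 48.7 CPM. Its log2 fold change was -0.0098 with a 95% interval from -0.20 to 0.18. The ratio of *C5ar1* to *C3ar1* in TPM, one of 13 ratios chosen after the values were seen, was 0.745, 0.836 and 0.650 in the controls and 0.465, 0.354 and 0.372 in the LysM-Cre mice (exact permutation test, two-sided p = 0.1, the smallest that 3 against 3 libraries allow). Of the 13 ratios 7 did not overlap between the groups, and the Benjamini-Hochberg adjusted p of each of these exact tests was 0.186.

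The membrane-bound inhibitors of complement had estimates of opposite sign. *Cd55* (NCBI Gene 13136, chr1:130429798-130465009), which encodes the factor that breaks up C3 convertases on the cell surface, had 66.8, 67.4 and 63.5 CPM in the controls. In the LysM-Cre mice it had 44.1, 49.2 and 43.6 CPM, with little spread in either group and a wide gap between them. Expression fell by 30.8%, a log2 fold change of -0.53 (SE 0.065, edgeR adjusted p = 0.0230). The adjusted p was 0.0533 with the replicate block and 0.0610 with the muscle score as a covariate, and it ran from 0.0207 to 0.147 when 1 library was left out, under 0.05 only without LysM-Cre replicate 2. The change itself stayed between -0.59 and -0.50 in those 6 fits. The transcript NM_010016 took 71.7% to 79.1% of the *Cd55* reads in each library, and the gene overlaps the noncoding gene *Cd55os* over 8117 bases, whose reads cannot be told apart from its own where strand was not used in counting.

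*Cd59a*, which blocks the membrane attack complex, had 13.7, 9.78 and 15.0 CPM in the controls and 19.4, 17.8 and 15.5 CPM in the LysM-Cre mice. The groups did not overlap in CPM, although control replicate 3 and LysM-Cre replicate 3 came close. In TPM they overlapped, with 21.0 in control replicate 3 and 20.7 in LysM-Cre replicate 3. The log2 fold change was 0.46 (SE 0.17, edgeR adjusted p = 0.289). The copy *Cd59b* had 4 to 10 reads per library. The ratio of *Cd59a* to *Cd55* in TPM was 0.390, 0.264 and 0.447 in the controls and 0.853, 0.698 and 0.678 in the LysM-Cre mice (exact permutation p = 0.1). This ratio was also chosen after the values were seen, from genes that already differed in opposite directions. Its p therefore adds no support to the differences of the single genes. *Serping1*, the inhibitor of C1r and C1s and the most abundant inhibitor in TPM, had 237, 230 and 254 CPM and 193, 208 and 123 CPM, without overlap. Its log2 fold change was -0.46 (SE 0.18, edgeR adjusted p = 0.315), and -0.26 without LysM-Cre replicate 3. *Cfi*, the protease that inactivates C3b, rested on 108 reads in all and had a log2 fold change of -0.77 with a 95% interval from -2.30 to 0.76.

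In the class of clotting factors, tissue factor and thrombin receptor all 5 genes overlapped between the groups. *F2r*, which encodes the thrombin receptor PAR1 and had the highest TPM of the class, had 128, 136 and 141 CPM in the controls and 161, 148 and 138 CPM in the LysM-Cre mice, with overlapping groups and a log2 fold change of 0.14 (edgeR adjusted p = 0.439). Tissue factor, *F3*, had 8.16 to 13.1 CPM over the 6 libraries and a log2 fold change of -0.15. *F5*, *F7* and *F10* were at 0.28 to 2.31 TPM, and their estimates of -0.36, -0.025 and 0.88 had 95% intervals that held 0. The estimate of *F10* was 0.24 without LysM-Cre replicate 2 and 1.80 with the muscle score as a covariate (edgeR adjusted p = 0.106).

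All 5 anticoagulant genes had lower estimates, and *Thbd* and *Procr* lay below the controls in every LysM-Cre library. *Thbd* (NCBI Gene 21824, chr2:148404471-148408188) encodes thrombomodulin, which turns thrombin into an activator of protein C. It had 65.3, 61.3 and 73.7 CPM in the controls and 38.4, 51.5 and 41.8 CPM in the LysM-Cre mice, with the highest LysM-Cre library below the lowest control. *Procr* (chr2:155751125-155755478), the endothelial protein C receptor, had 21.1, 18.2 and 17.2 CPM and 13.9, 14.8 and 14.1 CPM. The log2 fold changes were -0.60 (SE 0.12, edgeR adjusted p = 0.0871) and -0.40 (SE 0.098, edgeR adjusted p = 0.128), and they were -0.57 and -0.39 without LysM-Cre replicate 3. Without LysM-Cre replicate 2 the adjusted p of *Thbd* was 0.0349. *Pros1*, the protein C cofactor with the highest TPM of the class, had 140, 145 and 120 CPM and 128, 135 and 115 CPM, a log2 fold change of -0.10 with overlap. *Tfpi* and *Tfpi2* overlapped as well, at -0.20 and -0.29.

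In fibrinolysis 1 of the 2 plasminogen activators had lower values in every LysM-Cre library. *Plau* (chr14:20836662-20843388), which encodes uPA, had 40.3, 39.3 and 33.0 CPM in the controls and 26.1, 30.3 and 25.3 CPM in the LysM-Cre mice, without overlap (log2 fold change -0.46, SE 0.11, edgeR adjusted p = 0.117). *Plat*, which encodes tPA, had 78.2 to 94.1 CPM and 88.4 to 92.8 CPM, with a log2 fold change of 0.072 and a 95% interval from -0.11 to 0.25. The ratio of *Plat* to *Plau* in TPM, also chosen after the values were seen, was 2.11, 1.79 and 2.31 in the controls. It was 3.20, 2.64 and 3.17 in the LysM-Cre mice (exact permutation p = 0.1). The uPA receptor *Plaur* and the serpins *Serpine2* and *Serpinf1* overlapped between groups, with log2 fold changes of -0.082, -0.0039 and -0.018. *Serpinf1*, by far the most abundant member, had the narrowest 95% interval of the 34, from -0.15 to 0.11.

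**Figure D4:**
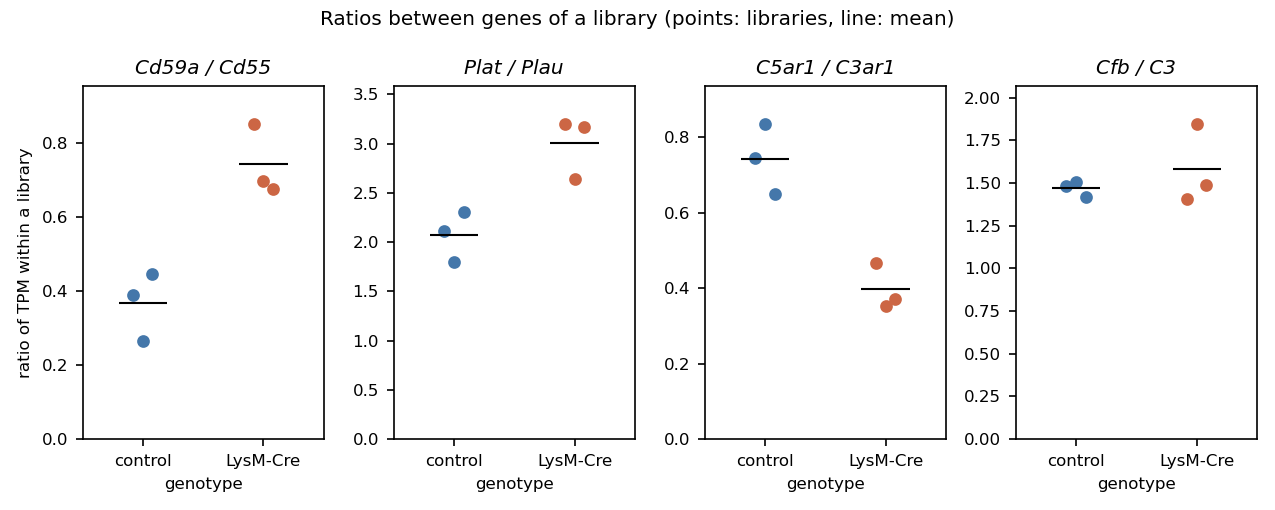
Ratio of TPM between pairs of genes within each library, with points for the 3 libraries of a group, a line at their mean, and axes from 0. *Cd59a* over *Cd55* and *Plat* over *Plau* are higher in all LysM-Cre libraries, *C5ar1* over *C3ar1* is lower in all, and *Cfb* over *C3* overlaps. The pairs were chosen after the values were seen.

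Other genes of these pathways were read from a list of 74, of which 63 were in the table and 31 had enough reads for the test. Of those 31, 20 had a lower estimate, against 50.6% of all genes tested. An edgeR adjusted p under 0.05 was found for 2, against 0.898% of all genes. *F13a1*, which encodes the subunit of factor XIII that crosslinks fibrin, had 179, 196 and 158 CPM in the controls and 81.9, 91.4 and 53.9 CPM in the LysM-Cre mice. It fell, with a log2 fold change of -1.23 (SE 0.19, edgeR adjusted p = 0.0456, 0.0210 with the replicate block and 0.0571 with the muscle score as a covariate). *Clu*, which encodes clusterin, a soluble inhibitor of the membrane attack complex, had 39.8, 37.9 and 40.1 CPM and 60.5, 56.5 and 53.3 CPM. It rose by a log2 fold change of 0.53 (SE 0.064, edgeR adjusted p = 0.0230), a call that was lost with the block (0.0611) and with the muscle score (0.0651). When 1 library was left out the adjusted p ran from 0.0321 to 0.194 for *F13a1* and from 0.0348 to 0.147 for *Clu*, and both were under 0.05 only without LysM-Cre replicate 2 or 3.

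Among the other complement genes *Susd4* and *Fcna* had log2 fold changes of -0.70 and -0.82 and *C4a* of -1.09 (edgeR adjusted p = 0.143, 0.171 and 0.249). Among the clotting genes *Ggcx*, the vitamin K-dependent carboxylase, had a log2 fold change of 0.15 and *Gas6* at -0.20 (edgeR adjusted p = 0.332 and 0.427), *S100a10* at -0.23 and *Vwf* was at -0.39, with adjusted p of at least 0.50. Genes of liver-made factors had almost no reads: *F2* had 0 to 7 per library, *F9* 0 to 2, and *Plg*, *Proc* and *F12* 0 to 1, while *Fga* and *F11* were at 0 in every library. The copies *C1rb* and *C1s2* had 0 to 1 and 2 to 10 reads.

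Marker genes of the cell types in the tissue were read in the same libraries, with called meaning an adjusted p under 0.05. Over all genes tested, edgeR called 0.898%, or 0.33% with the replicate block, and DESeq2 called 4.77%. An unadjusted p under 0.05 in edgeR was found for 8.55% with lower and 5.97% with higher values. Of 11 macrophage markers 8 had a lower estimate (median log2 fold change -0.43), with a summed level of 507 to 541 TPM in the controls and 362 to 458 TPM in the LysM-Cre mice. The edgeR test called 0 of them, DESeq2 called 4, all lower, and in edgeR 5 had an unadjusted p under 0.05 with lower and 1 with higher values. The 6 resident macrophage markers tested were all lower (median -1.91), with 158 to 180 TPM against 59.8 to 72.6 TPM, and edgeR called 4, or 3 with the replicate block. Beside these, the 3 C1q chains summed to 1077 to 1148 TPM and 833 to 1048 TPM. The ratio of *C1qa* to each of the 11 macrophage markers, in TPM, depended on the marker: all LysM-Cre libraries were higher for 4 markers (*Adgre1*, *Csf1r*, *Mrc1* and *Cd163*), lower for 3 (*Fcgr1*, *Mertk* and *Cx3cr1*), and overlapped with the controls for 4. The part of macrophage content in the lower complement values was not tested.

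Beside *Thbd* and *Procr*, the 9 endothelial markers all had lower estimates, with a median of -0.10 and a summed level of 579 to 634 TPM against 548 to 576 TPM. The edgeR test called 0 of them and DESeq2 1, and 2 had an unadjusted p under 0.05 in edgeR. The 5 platelet markers tested had a median of -0.78 and a summed level of 286 to 373 TPM against 189 to 279 TPM. Among them 0 were called by edgeR, 1 by DESeq2, and 3 had an unadjusted p under 0.05 in edgeR. The 6 mast cell markers had a median of -0.999 and 885 to 1205 TPM against 344 to 595 TPM, and edgeR called 1, or 3 with the block.

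Of 8 fibroblast markers 7 had lower estimates (median -0.27, 1 called by edgeR and 0 with the block), as had all 7 erythrocyte markers tested (median -1.59, 6 called by edgeR and 1 with the block). The 21 interferon response genes all had higher estimates (median 1.10), with 343 to 364 TPM against 479 to 790 TPM. The edgeR test called 0 of them and DESeq2 15, while 17 had an unadjusted p under 0.05 in edgeR and 16 lay above all control libraries. Over all genes, 5.97% had such a p with higher values and 8.94% lay above all control libraries. All 20 muscle genes had higher estimates as well (median 1.81), with 768 to 8936 TPM against 3245 to 25649 TPM and overlapping groups. Neither edgeR nor DESeq2 called any of the muscle genes, and 0 had an unadjusted p under 0.05 in edgeR. With the block 19 did, against 15.9% of all genes. Of 5 neutrophil markers tested 1 was lower, with a median of 0.83 and a summed level of 18.3 to 310 TPM against 38.4 to 380 TPM, and of 6 tendon markers 2 were lower (median 0.11), with 7688 to 8430 TPM against 8264 to 8967 TPM. In both lists edgeR and DESeq2 called 0, and 0 had an unadjusted p under 0.05 in edgeR. The part of these lists in the members' values was not tested.

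**Figure D5:**
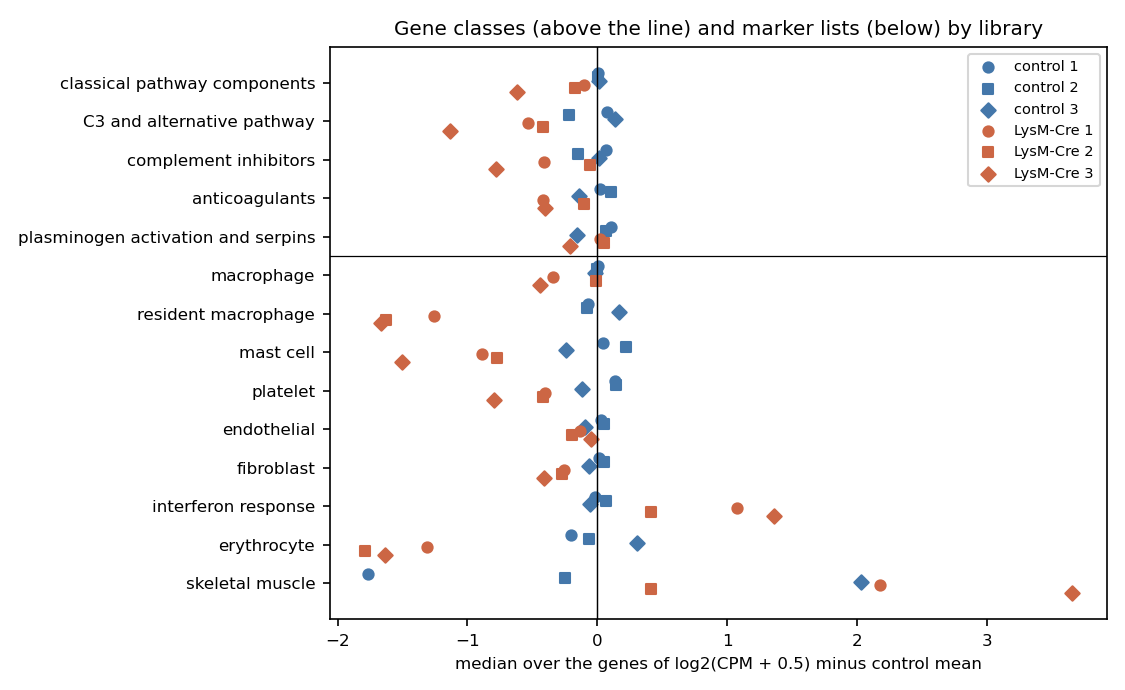
Median over the genes of a class or list of log2(CPM + 0.5) minus the control mean, 1 point per library (blue control, red LysM-Cre; circle, square and diamond for replicates 1, 2 and 3). LysM-Cre replicate 3, the red diamond, is lowest for the classical pathway, the *C3* class, the complement inhibitors, and plasminogen activation and serpins. It is also lowest for the macrophage, resident macrophage, mast cell, platelet and fibroblast lists, and highest for interferon response and skeletal muscle.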

How the data were processed

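RNA was sequenced on the BGISEQ platform from 3 *LysM-Cre; Ampkα1fl/fl* and 3 *Ampkα1fl/fl* mice. The authors deposited, per RefSeq transcript and library, an estimated count that is not normalized, TPM values scaled by the authors to transcript length, and a normalized count, deposited as a signal equal to the estimated count rounded up times 1 factor per library. GRCm38.p6 is named in the submitters' processing notes. The aligner and the counter, and whether counting used strand, are not given in the sources used here. The columns of FPKM and of group averages were not used.

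Estimated counts of 65053 transcripts were summed per gene and rounded, which gave 18099 genes, of which 99.72% were matched to a symbol by NCBI Gene identifier. The second placements listed for *C2* and *Cfb* were summed with the first. The libraries held between 18076805 and 19479887 reads. The test was the quasi-likelihood F test of edgeR 4.0.16 under R 4.3.3, after filterByExpr and TMM, without a covariate, and p-values were adjusted by Benjamini-Hochberg over 14261 genes (threshold 0.05). Standard errors are the estimate over the square root of F. CPM was scaled by TMM. Single genes and ratios were tested by exact permutation of the group labels, two-sided, for which 0.1 is the smallest possible p. The fit was also run on counts simulated from its own dispersions, without differences in muscle RNA or effects of replicate number. That run cannot show how the fit handles those features of the data. Replicates are separate mice, as the paper counts them. Libraries with the same replicate number in the labels had deviations from their group means that correlated at 0.184, 0.118 and 0.31 across genes. Values with the number as a block are therefore given where they change a call or a count of calls. Pairs with unlike numbers ran from -0.55 to 0.501, so the number did not single out the pairs that deviated together. LysM-Cre replicate 2 correlated more with control replicate 1 (0.501).

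The members and lists were chosen with earlier results of these data known. All 35 members are accounted for. Values of every library are given for members with an adjusted or unadjusted p under 0.05, with groups that do not overlap, or with the highest TPM of their class, and other pathway genes are named if called, among the 5 smallest p of their list, or copies of a member, except 1 that is not reported here. The liver-made factors were named after their values were seen. Alternatives were DESeq2 1.42.0, RLE scaling, no filter, at least 10 reads in every library, the block, the mean log2 CPM of 20 muscle genes as a covariate, leaving out each library, and the normalized count for directions.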

Additional observations from a re-analysis of the deposited data

How the results depend on the processing

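Directions of 34 members were compared under 12 alternatives: 369 of the values kept their direction and their side of the threshold, 8 passed it, 7 no longer passed it and 20 changed sign. The count of members with an adjusted p under 0.05 was 1, and it was 0 with the replicate block, 0 with the muscle score as covariate and 8 with DESeq2. It ranged from 0 to 2 when 1 library was left out, and was 2 without LysM-Cre replicate 2, where 276 of all genes were called, and 0 without any other library, where 8 to 60 were. Of all genes 128 were called in the main test, 47 with the block, 77 with the muscle score and 680 with DESeq2. The count at an unadjusted p under 0.05 was 13, ranging from 8 (without control replicate 2) to 15 when 1 library was left out. Over all genes that count was 2071, ranging from 1456 (without control replicate 1) to 2818 (without LysM-Cre replicate 2). The median log2 fold change of the members, -0.25, ranged from -0.32 to -0.11 when 1 library was left out, and was nearest to 0 without LysM-Cre replicate 3. The count of other pathway genes called was 2, and it was 1 with the replicate block, 0 with the muscle score, 3 with DESeq2 and from 0 to 2 when 1 library was left out. The causes were not tested.

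The signs that changed were those of members whose groups overlapped. With 1 library left out, the log2 fold change ranged from -0.023 to 0.35 for *Masp1*, from -0.066 to 0.059 for *C3ar1*, from -0.34 to 0.0025 for *F3*, from -0.37 to 0.47 for *F7*, from -0.29 to 0.031 for *Plaur*, from -0.092 to 0.090 for *Serpine2* and from -0.050 to 0.0021 for *Serpinf1*. With the muscle score it was 0.21 for *F7*, 0.040 for *Pros1*, 0.30 for *Plaur* and 0.17 for *Serpine2*. For *Serpine2* it was 0.0015 with RLE scaling and with DESeq2. The block changed no other member's call than that of *Cd55*. With at least 10 reads in every library, 30 members were left. With 3 libraries a group, the 95% intervals of *C1ra*, *C1s1*, *C2*, *Cfp*, *Cfi*, *F3*, *F5*, *F7*, *Tfpi2* and *Plaur* held both 0 and a log2 fold change of -0.53, that of *Cd55*.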
